A study of Rattus norvegicus with 9 samples.

Results

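Monomethylation of histone H3 at lysine 4 (H3K4me1) was mapped by ChIP-seq in rat dorsal root ganglia (DRGs), and the regions enriched for it are described here. Every region of the deposited H3K4me1 list was taken, which gave 211440 regions of the 398159 in the lists of H3K4me1-enriched and accessible regions. All animals were adult female Sprague-Dawley rats. The CCI group had a chronic constriction injury of the sciatic nerve, a model of neuropathic pain, and its ipsilateral L4 to L6 DRGs were taken on day 14 after surgery, whereas naïve rats were not injured. Each ChIP-seq sample pooled 3 rats, with 2 CCI and 2 naïve samples. Regions were called by the authors in each group and merged into 1 list of rn6 positions, with no height and no value per sample. For that reason this list could not be used to compare CCI and naïve for the mark itself and gave no replicate error for it, and the pooled rats cannot be separated. Accessibility came from ATAC-seq of 2 CCI and 3 naïve rats, with 1 rat per library. Its deposited list holds 186719 accessible regions, more than the study counted as reproducible across both groups.

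H3K4me1 is laid down by methyltransferases of the MLL family on nucleosomes of enhancers, poised or active, and on the flanks of active promoters, where trimethylation of the same lysine takes the centre. In DRGs, whose sensory neurons lie among satellite glia, Schwann cells, fibroblasts, endothelium and immune cells, a bulk map sums the mark over all of these. A stronger signal from more cells of a type and a stronger signal per cell cannot be told apart in it.

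Most H3K4me1-enriched regions were short. The shortest measured 0.201 kb and the longest 36524 bp, with a mean of 868 bp and a median of 621 bp. That shortest length was shared by 21320 regions (10.1%), so the list had a sharp lower edge. The lower quartile was 305 bp, and 90% of the list lay below 1748 bp and 99% below 4795 bp. Together the regions covered 184 Mb.

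The few long regions held a large part of the marked sequence. Regions of at least 1 kb were 25% of the list and held 57.2% of its bases, and those of at least 2 kb were 7.85% and held 30.3%. By length class, 86716 regions (41.0%) were under 500 bp, 71922 (34.0%) from 500 bp to 1 kb, and 36206 (17.1%) from 1 kb to 2 kb. A further 14741 (6.97%) measured 2 kb to 5 kb, 1697 (0.803%) measured 5 kb to 10 kb, and 158 (0.0747%) were 10 kb or longer. The class under 500 bp held 13.9% of the marked bases, while the 158 longest regions held 1.12%.

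Longer H3K4me1 regions more often held accessible chromatin, counted as an overlap of at least 1 bp. No accessible region was found in 87.8% of the regions under 500 bp, 82.2% of those from 500 bp to 1 kb and 66.6% of those from 1 kb to 2 kb. The share without one was 24.9% from 2 kb to 5 kb, 3.65% from 5 kb to 10 kb and 1.90% at 10 kb or longer. Exactly 1 accessible region was held by 12%, 16.2%, 27.2%, 52.0%, 35.5% and 10.8% of the 6 classes, from short to long. The class from 2 kb to 5 kb was thus the one in which a single accessible region was most common.

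Regions with several accessible sites were nearly absent from the short classes and usual in the long ones. At least 2 accessible regions were held by 0.235% of H3K4me1 regions under 500 bp, 1.69% from 500 bp to 1 kb, 6.16% from 1 kb to 2 kb and 23.1% from 2 kb to 5 kb. The share was 60.9% from 5 kb to 10 kb and 87.3% at 10 kb or longer (138 of 158, 95% Wilson interval 81.3% to 91.7%). Over the list as a whole, 77.1% of H3K4me1 regions held 0 accessible regions, 19% held 1 and 3.89% held 2 or more. Long regions offer more bases to overlap, and per kb of H3K4me1 the order changed. The number of accessible regions per kb was 0.422 under 500 bp, 0.266 from 500 bp to 1 kb, 0.294 from 1 kb to 2 kb, 0.360 from 2 kb to 5 kb, 0.308 from 5 kb to 10 kb and 0.268 at 10 kb or longer. Per region the longest class held 27.8 times as many accessible regions as the shortest, and per kb 0.635 times as many. With an overlap of 1 bp enough, the count per kb includes accessible regions that reach only partly into a short H3K4me1 region. The share of bases that were accessible ran the other way, at 7.95% in the shortest class and 14.9% in the longest.

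Bases of accessible chromatin made up 7.95% of H3K4me1 sequence in regions under 500 bp and 7.43% from 500 bp to 1 kb. They made up 13.0% from 1 kb to 2 kb, 24.8% from 2 kb to 5 kb, 20% from 5 kb to 10 kb and 14.9% at 10 kb or longer. The peak in the class from 2 kb to 5 kb went with wider accessible sites. In that class the median accessible region was 628 bp long, against 295 bp under 500 bp, 433 bp at 10 kb or longer, and 222 bp outside H3K4me1.

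The placement of accessible regions within the mark, a measure chosen after the data had been seen, also differed by length class. In H3K4me1 regions under 500 bp, 13.6% of the overlapping accessible regions lay wholly inside, 67.2% crossed 1 edge and 19.3% spanned both edges. The share wholly inside was 42.6% from 500 bp to 1 kb, 70.8% from 1 kb to 2 kb, 92.0% from 2 kb to 5 kb, 96.9% from 5 kb to 10 kb and 98.2% at 10 kb or longer. Length itself limits this measure. The median H3K4me1 region under 500 bp was 264 bp long, and the median accessible region that overlapped this class was 295 bp, which leaves little room to lie wholly inside. Of the accessible regions, 223 overlapped 2 H3K4me1 regions, 58222 overlapped 1 and 128274 overlapped 0.

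H3K4me1 regions lay close together. The median gap from the end of a region to the start of the next on the same chromosome was 5.62 kb, with quartiles of 2.37 and 12.9 kb, over 211419 gaps. Gaps of 12.5 kb or less were 74.2% of all. The median distance to the nearest neighbour was 3.26 kb for regions under 500 bp, 3.01 kb from 500 bp to 1 kb and 2.62 kb from 1 kb to 2 kb. It was 2.27 kb from 2 kb to 5 kb, 1.70 kb from 5 kb to 10 kb and 1.23 kb at 10 kb or longer, so the longest regions also had the nearest neighbours.

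Short gaps were scarce below a sharp edge, a feature noticed after the data had been seen. There were 610 gaps in the 50 bp below 800 bp and 2120 in the 50 bp from 800 bp on, and 7551 gaps (3.57%) were under 800 bp. What set this edge was not tested.

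The widest stretches free of H3K4me1 still held regions of the accessible list. Accessible regions outside H3K4me1 had the lowest levels, as given further on. Whether those in the gaps were reproducible between rats was not tested. Of the gaps, 3 were at least 1 Mb long. The widest, at chr6:16059594-17350141, spanned 1.29 Mb and held 13 accessible regions. The next were chr8:42143606-43286811, of 1.14 Mb with 8 accessible regions, and chr7:6092163-7188756, of 1.10 Mb with 9. Among gaps from 2 kb to 5 kb, 21.9% held an accessible region, and among gaps of 12.5 kb or longer 71.7% did. Longer gaps offer more bases, and per kb the order was the reverse, at 0.0764 and 0.0535 accessible regions per kb.

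Neighbouring enhancers are commonly joined into clusters when they lie within 12.5 kb, and this distance grouped most of the list. The mean gap of the list was 12.3 kb, near the joining distance, so regions of this density placed at random would also often be joined. Whether the regions lay closer together than at random was not tested. It gave 54486 groups, of which 22142 were single regions (10.5% of the list) and 32344 held at least 2 regions (89.5% of the list). The median cluster of at least 2 held 3 regions, spanned 15.3 kb and, over all such clusters, 19.2% of the span was marked. Clusters of at least 10 regions numbered 4749 and held 41.3% of all regions, and 114 clusters had at least 50.

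Regions in larger clusters were longer, yet no richer in accessible sites. Their median length was 484 bp for single regions, 546 bp in clusters of 2 to 3, 621 bp in clusters of 4 to 9, 671 bp in clusters of 10 to 19 and 717 bp in clusters of 20 or more. Regions of at least 2 kb were 3.88% of the single regions and 11.5% of those in clusters of 20 or more. An accessible region was held by 24.5% of single regions and by 21.9% of regions in clusters of 20 or more.

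The largest cluster by number, by marked bases and by span lay at chr16:20265556-21090229, where 165 H3K4me1 regions over 825 kb marked 251 kb (30.4%) and had 106 overlaps with accessible regions. Its longest region measured 7011 bp. The study's lists of differential regions name *Jund*, an AP-1 subunit, *Pik3r2*, a regulatory subunit of PI3-kinase, and *Comp*, a cartilage matrix protein, among the nearest genes there. Those lists were drawn from these same ATAC-seq libraries, so a listed gene marks a place where the study called a difference, and is no independent evidence of one.

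Chromosome 7 held a pair of adjoining clusters. The cluster at chr7:11144202-11757262 had 145 regions over 613 kb and marked 235 kb (38.3%), with *Nfic*, a nuclear factor I gene, and *Zbtb7a*, a transcriptional repressor, among its listed genes. The cluster at chr7:11769832-12285050 had 106 regions over 515 kb and marked 175 kb (34.0%), with *Dot1l*, the histone H3 lysine methyltransferase, *Klf16* and *Apc2* listed. Their longest regions, of 14478 bp and 14772 bp, were both in the class of 10 kb or longer.

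On chromosome 1, the cluster at chr1:101115328-101742868 had 114 regions over 628 kb, marked 202 kb and held the 19348 bp region that ranked as the ninth longest of the list. The cluster at chr1:264117154-264672251 differed from the others. It had 124 regions over 555 kb but 24 overlaps with accessible regions and no listed gene, and its longest region measured 4664 bp. The cluster with the fifth most marked bases, chr7:117165296-117688874, had 96 regions over 524 kb, marked 147 kb and listed *Plec*, which encodes the cytolinker plectin, and *Hsf1*, the heat shock factor.

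Coverage by H3K4me1 differed 2.71-fold between chromosomes. Over all 21 chromosomes, with each length taken up to the last region of either list, 6.61% of 2778 Mb was marked. Coverage was highest on chromosomes 10 and 12, at 11.1% each, followed by 9.07% on chromosome 19 and 8.47% on chromosome 20. It was lowest on chromosome X at 4.11% and, among autosomes, on chromosome 2 at 4.60%.

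Median length ran from 546 bp on chromosome X to 689 bp on chromosome 10. The median gap was shortest on chromosome 12 at 4.03 kb, then 4.26 kb on chromosome 10, and widest on chromosome X at 8.08 kb. Regions of 10 kb or longer numbered 27 on chromosome 1, 21 on chromosome 10, 15 on chromosome 2 and 14 on chromosome 7. The number of accessible regions per Mb varied less among autosomes, from 64.5 on chromosome 13 to 80.1 on chromosome 20, and was 34.6 on chromosome X. Across the 21 chromosomes, which share the same libraries and differ in gene density, the Spearman correlation of coverage with accessible regions per Mb was 0.132.

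Windows of 1 Mb spread far more widely than chromosomes. All 2768 full windows held some H3K4me1. Their coverage had a median of 5.70%, with 1.03% at the 5th percentile, 15.6% at the 95th and 35.2% at the top. The 276 windows with most H3K4me1 held 25.4% of the marked bases and 13.6% of the accessible regions. The Spearman correlation of window coverage with the number of accessible regions was 0.454 over the 2768 windows, which share the same libraries and neighbour each other.

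The most covered window was chr7:11000001-12000000 at 35.2%, with 222 H3K4me1 and 144 accessible regions. It was followed by the next window of chromosome 7, chr7:12000001-13000000, at 35.0%, where *Gpx4*, the lipid peroxide reductase, and *Cirbp*, the cold-inducible RNA-binding protein, are listed. Then came chr1:101000001-102000000 at 30.2%, chr16:20000001-21000000 at 29.7% and chr1:221000001-222000000 at 27.5%. All 5 overlapped listed genes, and they held 121 to 158 accessible regions each, so many regions there could be listed.

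At the other end, chr7:6000001-7000000 was covered to 0.0201% by a single region of 0.201 kb and held 9 accessible regions. The windows chr6:16000001-17000000 and chr1:118000001-119000000 also had 1 H3K4me1 region each, of 217 bp and 245 bp, beside 14 and 18 accessible regions. In chr7:5000001-6000000 there were 2 regions, and in chr8:42000001-43000000 there were 3. None of these 5 windows held a listed gene, and they held 9 to 18 accessible regions each. The share of all windows with a listed gene was not counted, so the contrast with the most covered windows is not a result about H3K4me1.

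The longest domain of the list, chr3:171308183-171344706, measured 36524 bp and held 9 accessible regions, which took up 9.08% of it. Its listed gene was *Pmepa1*, which encodes a membrane protein that dampens TGF-β signalling. The second longest, chr1:131437783-131466885, measured 29103 bp and held 7 accessible regions. Regions of at least 20 kb numbered 7, and the other 5 were on chromosomes 17, 5, 10 (2 regions) and 19.

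The 20 longest domains measured at least 17134 bp and had 118 overlaps with accessible regions. A listed gene was given for 5 of the 20, and over the whole list 1951 H3K4me1 regions (0.923%) held a listed region. Longer regions offer more bases to overlap. Beside *Pmepa1*, these were the 19925 bp region at chr7:126552135-126572059 (*Mirlet7c-2*), the 19202 bp region at chr12:38859903-38879104 (*Hpd*, an enzyme of tyrosine breakdown, and *Tmem120b*), the 17810 bp region at chr2:11870607-11888416 (*Mir9-2* and *Mir3597-2*) and the 17134 bp region at chr7:120392365-120409498 (*Sox10*). *Sox10* encodes the transcription factor of the neural crest that Schwann cells and satellite glia keep.

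Length and number of accessible regions did not run in parallel at the top. The most accessible regions, 11, lay in chr1:54950736-54961120, a region of 10385 bp of which 32.6% was accessible. The 23019 bp region chr17:1071353-1094371 held 10. Of the 158 regions of 10 kb or longer, 39 held a listed accessible region, and 3 held no accessible region. Those 3 were chr1:256374352-256384921 (10570 bp), chr4:433153-443650 (10498 bp) and chrX:73560386-73570520 (10135 bp).

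Of the marker genes in the lists, *Sox10* and *Col1a1* were listed for regions of 10 kb or longer. *Col1a1*, the fibroblast collagen gene, had 15138 bp at chr10:82742040-82757177. The other regions listed for genes of the same Schwann cell and fibroblast lists were far shorter. They measured 1199 bp for *Mbp*, 1293 bp for *Col1a2* and 1409 bp for another *Col1a1* region. In all, 48 gene symbols were listed for these domains. Among them, picked after the symbols were seen, were *Cnp*, a myelin gene (11535 bp at chr10:88490363-88501897), *Gpr37l1*, a receptor gene of glia (12921 bp at chr13:51979833-51992753), *Actg1*, a cytoskeletal actin (12811 bp), and *Ahnak*, a large scaffold protein (13361 bp).

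Of the lists of marker genes, sensory neuron identity genes had 5 of 17 named by the study as nearest gene of a listed region in H3K4me1, nociceptor genes 2 of 17, and injury and regeneration genes 4 of 17. Satellite glia had 1 of 8, Schwann cells 2 of 12, endothelium 2 of 8, and fibroblasts and mural cells 2 of 9. Macrophages and other immune cells had 0 of 10, skeletal muscle 0 of 7, liver 0 of 6 and forebrain neurons 1 of 4. For scale, 1704 gene symbols were listed in all, beside 27457 promoters in RefSeq (GRCr8), which is a different annotation. No list was tested against that background, so the counts are not a result about any list. Since only genes near the study's differential regions could be named, these counts are not independent evidence. A gene not named is not shown to lack H3K4me1.

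Among the named neuron genes, *Prph*, which encodes the intermediate filament peripherin, had the longest H3K4me1 region at 7328 bp. *Ret*, the receptor of GDNF-family ligands, had 6821 bp, *Nefh*, the heavy neurofilament, 4648 bp, and *Scn11a*, the sodium channel of nociceptors, 2804 bp. Of the injury genes, *Socs3*, the feedback inhibitor of cytokine signalling, had 8009 bp, *Stat3*, its upstream transcription factor, 4665 bp, *Gadd45g*, a stress-response gene, 3199 bp, and *Vgf*, a neuropeptide precursor, 745 bp. *Socs3* was also listed for regions of 902 bp and 419 bp. *Slc1a3*, a glutamate transporter gene of glia, had 911 bp, and the endothelial genes *Cdh5*, a cadherin, and *Pecam1*, an adhesion molecule, had 348 bp and 2851 bp.

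Regions of the differential lists lay in longer H3K4me1 regions than accessible regions as a whole. The promoter list holds promoters only, while the whole holds promoters and other regions. Accessible regions in longer H3K4me1 regions also had higher levels, as given further on. The comparison was matched for neither, so it is not a result about differential accessibility. Across all 58445 accessible regions in H3K4me1, the median H3K4me1 region was 1244 bp long. It was 3176 bp for the 470 of 476 listed promoter regions that overlapped the mark and 2205 bp for 1998 regions of the other list. That list has 2145 regions, and its last 147 (6.85%) were missing from the copy read, whose rows ran in order of rising p, so every count of listed genes or regions leaves them out. H3K4me1 regions under 1 kb held 42.2% of all accessible regions in the mark, 1.28% of the promoter list and 23.4% of the other list.

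The 7 segments cloned by the study for luciferase assays each overlapped 1 H3K4me1 region, in the 4 classes up to 5 kb. Segments A (chrX:79908333-79908465), D (chr2:57941334-57941850) and G (chr12:12086634-12086856) lay 100% inside H3K4me1 regions of 2586 bp, 911 bp and 1870 bp. Segment E shared 92.7% of its bases with a region of 703 bp, F 49.0% with 356 bp, C 43.5% with 914 bp and B 28.6% with 366 bp. The primers of the segments that lay wholly inside the mark are printed because they set the ends of the tested DNA, each 5′ to 3′, with the genomic part in capitals and the cloning tail in lower case.
A forward: atcagctagcTGGCCTCAGTTCCCGTATTT
A reverse: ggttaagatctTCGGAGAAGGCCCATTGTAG
D forward: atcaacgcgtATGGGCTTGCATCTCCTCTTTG
D reverse: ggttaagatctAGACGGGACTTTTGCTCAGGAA
G forward: atcaacgcgtTGCTCCCAGGATCTAGTGAG
G reverse: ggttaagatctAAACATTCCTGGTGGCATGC

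Accessible regions listed with a microRNA as nearest gene lay in H3K4me1 regions of all 6 length classes, which does not place the microRNA genes themselves in the mark. They carried 28 microRNA symbols, 27 of which matched RefSeq (GRCr8), with 10 listed in regions of 5 kb or longer and 3 in regions of 10 kb or longer. The 5p mature sequences of those 3, and of *Mir138-1* at chr8:131623887-131630359, are shown because their domains are the ones described by rat further on. The mature sequences of their other arms are not printed. Capitals mark the seed, bases 2 to 8.
rno-let-7c-5p: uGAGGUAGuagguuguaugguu
rno-miR-9a-5p: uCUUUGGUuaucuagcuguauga
rno-miR-9b-5p: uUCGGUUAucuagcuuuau
rno-miR-138-5p: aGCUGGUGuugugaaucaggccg
Each of the 4 printed seeds was different. As background, let-7 promotes differentiation by repressing growth genes, miR-9 acts in neural progenitors, and miR-138 is enriched in neurons.

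Promoters under longer H3K4me1 regions were richer in CG dinucleotides, a measure chosen after the data had been seen. For genes of the promoter list, 379 of 468 symbols (81.0%) matched RefSeq (GRCr8), older symbols through their synonyms. The median number of CG in the 250 bases before the gene start was 10 under regions below 1 kb (4 genes), 17 from 1 kb to 2 kb (47 genes), 19 from 2 kb to 5 kb (251 genes) and 23 at 5 kb or longer (77 genes). Over all 27457 RefSeq promoters the median was 6. Since these genes came from the study's calls, the counts describe the list alone. The 250 bases of 3 promoters, chosen after their counts were seen, are printed on the strand of the gene and with each CG in capitals. Their counts happen to rise with length, while those of other genes did not, such as *Prph* (7328 bp, 9 CG), *Grn* (10548 bp, 7 CG), *Pfn1* (12876 bp, 11 CG) and *Ankrd13a* (10197 bp, 42 CG).
*Scn11a* (2804 bp H3K4me1 region, 4 CG): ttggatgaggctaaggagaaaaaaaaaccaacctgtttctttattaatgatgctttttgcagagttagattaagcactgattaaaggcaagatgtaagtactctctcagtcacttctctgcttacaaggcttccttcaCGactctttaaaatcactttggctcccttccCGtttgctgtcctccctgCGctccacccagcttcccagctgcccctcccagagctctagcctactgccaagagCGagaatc
*Ret* (6821 bp, 25 CG): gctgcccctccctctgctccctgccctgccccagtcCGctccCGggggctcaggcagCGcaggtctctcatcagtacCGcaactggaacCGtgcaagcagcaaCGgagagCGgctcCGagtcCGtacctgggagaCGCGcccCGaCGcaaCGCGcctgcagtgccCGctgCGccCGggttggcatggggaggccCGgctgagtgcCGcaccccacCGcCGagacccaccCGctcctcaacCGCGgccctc
*Plxnd1* (10928 bp, 37 CG): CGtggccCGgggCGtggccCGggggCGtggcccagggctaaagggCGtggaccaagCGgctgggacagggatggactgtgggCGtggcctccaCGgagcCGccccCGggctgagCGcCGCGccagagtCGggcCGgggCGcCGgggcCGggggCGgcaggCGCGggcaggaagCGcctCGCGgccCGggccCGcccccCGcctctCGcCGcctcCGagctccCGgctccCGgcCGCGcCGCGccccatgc
*Plxnd1* encodes a semaphorin receptor of vessels and axons.

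Accessibility in H3K4me1 was then compared between CCI and naïve rats over the 5 ATAC-seq libraries. In the accessible regions, CCI rats 1 and 2 had 7692994 and 9304710 reads and naïve rats 1, 2 and 3 had 13248437, 4633807 and 6382154. Values are normalized reads, that is reads divided by a size factor per library. Of each rat's normalized reads in accessible regions, 69.2% and 64.6% lay in H3K4me1 in the CCI rats and 64.5%, 69.2% and 66.4% in the naïve rats. The groups overlapped, with means of 66.9% ± 3.26 (SD, n = 2) and 66.7% ± 2.40 (SD, n = 3). An exact two-sided permutation test of 2 rats against 3, whose smallest possible p is 0.200, gave p = 1.

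By length class, no difference in this share passed the exact permutation test, with adjusted p from 0.720 to 0.800 over the 6 classes. The regions of 10 kb or longer took 1.34% and 1.22% of the normalized reads in CCI rats and 1.08%, 1.24% and 1.05% in naïve rats. CCI rat 2 lay just below naïve rat 2, so the groups overlapped.

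Accessible regions in the longest H3K4me1 regions had a higher level than those in the shortest in every rat. The median normalized reads per accessible region in regions under 500 bp were 14 and 12.8 in CCI rats and 12.7, 12 and 12.5 in naïve rats. In regions of 10 kb or longer they were 72.8 and 54.9 in CCI rats and 49.8, 61.0 and 47.3 in naïve rats. Outside H3K4me1 they were 9.35 and 9.16 in CCI rats and 8.82, 7 and 7.89 in naïve rats. CCI rat 1 had the highest level in each class. Relative to accessible regions outside H3K4me1, the level was 1.45-fold under 500 bp and 6.89-fold at 10 kb or longer on average in CCI rats, and 1.58-fold and 6.79-fold in naïve rats. Per kb of accessible region these ratios were 1.19 and 4.12 in CCI rats and 1.20 and 3.81 in naïve rats.

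Called differences were most frequent in the longest H3K4me1 regions. Levels were also higher there than in the shortest, as given above, and level was not separated from length. At an unadjusted limma p below 0.01, 3066 of 58445 accessible regions in H3K4me1 (5.25%) were called, 1962 higher and 1104 lower after CCI. The share called was 4.08% in regions under 500 bp, 4.12% from 500 bp to 1 kb, 5.17% from 1 kb to 2 kb and 6.19% from 2 kb to 5 kb. It was 8.62% from 5 kb to 10 kb (289 of 3351) and 11.6% at 10 kb or longer (64 of 550). The share of the calls that were higher after CCI was 52.3% in the shortest class, 82.4% from 5 kb to 10 kb and 87.5% in the longest.

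This pattern was lost in some settings and kept in others. After subtraction of 1 Mb window medians from each library, 3.27% of the longest class was called (18 regions, 5.56% of them higher), and 8.03% of all 2777 calls were higher. Without CCI rat 1, 2009 regions were called, 13.4% of them higher, and in the longest class 21 (3.82%), of which 28.6% were higher. With the replicate block the longest class had 2.18% called, against 2.42% of all. Median-of-ratios rescaling left 36.4% of all calls higher, yet the longest class still had the highest share called, 8.73%, with 66.7% of its calls higher. The longest class also kept the highest share without each of the other rats. Without naïve rats 1 and 3 the totals were 1477 and 2134, and the longest class had 18 calls (88.9% higher) and 26 calls (76.9% higher). Without naïve rat 2 and without CCI rat 2 it had 13.3% and 20.9% called. At an adjusted p below 0.05 there were 438 calls, of which 44.5% were higher, with 10 in the longest class, 90% of them higher. DESeq2 gave 1572 calls with its default dispersion trend, and with trends chosen after that count was seen it gave 2150 (local) and 1177 (mean). The longest class had the highest share with the default and local trends, at 8.18% and 9.64%, and the lowest with the mean trend, at 1.27% (7 regions) against 2.01% of all.

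Shares called also rose with length for H3K4me1 regions as units, a comparison added after the data had been seen, in which the values of all accessible regions in an H3K4me1 region were summed. Of 48376 H3K4me1 regions with a sum, 2621 (5.42%) had a limma p below 0.01, 1657 higher and 964 lower after CCI. The share rose from 4.02% under 500 bp to 11% at 10 kb or longer (17 of 155, 15 higher and 2 lower). In 5 of the alternatives the longest class had a lower share than the whole. At an adjusted p below 0.05, 402 regions were called, 182 higher and 220 lower, with 0 of the longest class. Without CCI rat 1 the total was 1832, with 223 higher and 1609 lower, and the longest class had 5 calls (3.23%), all lower. Without naïve rat 1 the total was 1239, with 0 of the longest class. Without naïve rat 3 it was 1830 (3.78%), and the longest class had 2 calls (1.29%), both lower, which was the lowest share of any class. With window medians removed the total was 2504, of which 195 were higher, and the longest class had 3 calls (1.94%), all lower. Without CCI rat 2 and without naïve rat 2 the longest class kept a higher share than the whole, at 32.9% and 9.68%.

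Windows rich in H3K4me1 were shifted toward higher values after CCI, again a relation chosen after the data had been seen. Across 10 groups of windows ordered by H3K4me1 coverage, the median log2 difference between CCI and naïve was -0.16 in the group with least, -0.17 and -0.13 in the next groups, and 0.02 in the fifth. It was 0.24 in the eighth, 0.32 in the ninth and 0.46 in the group with most. The difference was present inside and outside the mark, at 0.41 and 0.54 in the group with most H3K4me1. Over 2703 windows with at least 20 accessible regions, which share the 5 libraries and differ in base composition and gene density, the Spearman correlation of coverage with the window's median log2 difference was 0.763, and 0.750 without chromosomes 10 and 12.

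The shift differed from rat to rat within a group. The correlation of coverage with a rat's own deviation from the mean of all 5 was 0.832 in CCI rat 1 and 0.381 in CCI rat 2, against -0.838, 0.146 and -0.650 in naïve rats 1, 2 and 3. The 276 windows with most H3K4me1 took 26.7% and 25% of the normalized reads in CCI rats and 20%, 22.8% and 20.8% in naïve rats. Both CCI rats lay above all naïve rats, at 25.8% ± 1.15 (SD, n = 2) against 21.2% ± 1.42 (SD, n = 3), with an exact permutation p of 0.200, the smallest that this two-sided test can give. The cause of the shift was not tested.

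None of the 20 longest domains passed the limma threshold by its summed values, beside the 5.42% of all H3K4me1 regions with a sum. Of the 20, 18 had a positive and 2 a negative log2 difference, with a median of 0.23, against 0.14 over all 48376 regions. With window medians removed the balance turned over, to 5 positive and 15 negative, with a median of -0.20 against -0.12 over all. In 7 of the 20 the groups did not overlap, beside 31.8% of all 48376 regions, so this count is not a result about the 20. At the longest, the *Pmepa1* domain, the sums were 632 and 520 normalized reads in CCI rats and 486, 563 and 434 in naïve rats. Naïve rat 2 lay above CCI rat 2, so the groups overlapped, and the log2 difference was 0.22 (standard error 0.27), or -0.21 with window medians removed.

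The *Mirlet7c-2* domain had sums of 827 and 679 in CCI rats and 443, 637 and 455 in naïve rats. Both CCI rats lay above all naïve rats (log2 difference 0.57, limma adjusted p = 0.284), and the difference was 0.19 with window medians removed. The *Sox10* domain had 586 and 494 in CCI rats and 384, 447 and 279 in naïve rats (log2 difference 0.57, limma adjusted p = 0.271). This difference was -0.02 once window medians were removed, so the domain did not stand out from its surroundings.

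The *Mir9-2* domain was the clearest of the 20 in the other direction. Its sums were 456 and 325 in CCI rats and 637, 647 and 553 in naïve rats. Both CCI rats lay below all naïve rats, with a log2 difference of -0.66 (standard error 0.26, limma adjusted p = 0.196), and of -0.59 with window medians removed. Leaving out each rat in turn gave -0.91 to -0.42. The domain with most accessible regions, chr1:54950736-54961120, was nearly level, at 974 and 940 in CCI rats and 949, 949 and 976 in naïve rats.

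Among H3K4me1 regions of 5 kb or longer, the lowest p-values were looked up after the fit, so these regions were chosen after their values were seen. The lowest was at chr8:131623887-131630359, 6473 bp long and listed for *Mir138-1*, with sums of 153 and 130 in CCI rats and 60.8, 70.0 and 53.2 in naïve rats. Both CCI rats lay far above all naïve rats, with a log2 difference of 1.19 (standard error 0.26, limma adjusted p = 0.00523) and 0.68 with window medians removed. The region listed for *Plec*, chr7:117286870-117293010, had sums of 260 and 182 in CCI rats and 95.1, 111 and 89.4 in naïve rats. Its groups did not overlap, and its log2 difference of 1.14 (limma adjusted p = 0.00631) was 0.56 with window medians removed, which no longer passed the threshold.

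Of the first 10, the only one that fell after CCI was chr3:86653876-86662309, 8434 bp long and listed for *Lrrc4c*, a synaptic adhesion gene. Its sums were 86.8 and 72.3 in CCI rats and 171, 165 and 156 in naïve rats. Both CCI rats lay well below all naïve rats, with a log2 difference of -1.04 (standard error 0.25, limma adjusted p = 0.0177), and of -0.77 with window medians removed.

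The *Prph* region had sums of 150 and 121 in CCI rats and 52.0, 84.0 and 62.4 in naïve rats. The groups did not overlap, and the log2 difference was 1.04 (limma adjusted p = 0.0212), or 0.58 with window medians removed, which no longer passed the threshold. The *Col1a1* domain had 365 and 271 in CCI rats and 182, 234 and 185 in naïve rats. Here too the groups did not overlap (log2 difference 0.66, past the unadjusted threshold, limma adjusted p = 0.177), and the difference was 0.03 with window medians removed. Both genes were chosen after their values were seen, and the difference between them was not tested.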

How the data were processed

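Per the labels, H3K4me1 ChIP-seq and ATAC-seq were done on L4 to L6 DRGs and reads were aligned to rn6. The authors called broad H3K4me1 regions with MACS2 against input in CCI and naïve samples and merged them, and the deposited list holds region positions and no signal. For ATAC-seq, the deposited signal is normalized reads per accessible region, the reads divided by a size factor. Multiplied by the size factors recovered here, 100% of the deposited values were whole reads within 0.01. A median of 20 to 57 reads per region in H3K4me1 limits the precision of single regions. The members and lists were chosen with earlier results of these data known.

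H3K4me1 regions did not overlap each other. Overlaps with accessible regions needed at least 1 bp, and an accessible region in 2 H3K4me1 regions was counted in the class of the longer. Clusters joined regions up to 12.5 kb apart. Intervals are 95% Wilson intervals and cover counting only. Rats were compared with exact permutation tests and with limma 3.58.1 (R 4.3.3) with a mean-variance trend on log2(value + 1), two-sided, at an unadjusted p below 0.01, and adjusted p-values are Benjamini-Hochberg over all regions tested. Python 3.11.15 with numpy 2.4.6, pandas 2.3.3 and scipy 1.17.1 did the rest. The tests were tested on simulated data, in which limma, edgeR and DESeq2 each found most 4-fold changes and a minority of 2-fold changes, DESeq2 the fewest. The criteria of that test were set after a stricter one had failed for DESeq2.

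Regions named were the 20 longest, the 10 with most accessible regions, the 10 longest without one, the longest of each chromosome, the 5 largest clusters by regions and by bases, the 5 most and least covered windows, and the 7 cloned segments. Others were chosen after their values were seen. Gene names are those the study's lists give for listed regions, as no rn6 annotation was used here, and 1 list could be read only in part. Sequences came from RefSeq (GRCr8) and the study's primers.

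Alternatives tried were 6 classes of equal number, an overlap of 50% of the accessible region, accessible regions above the 25th percentile, counts per kb, joining at 5 and 25 kb, regions of at least 500 bp or 1 kb, windows of 500 kb and 5 Mb, chromosome spans, adjusted p, a pseudocount of 10, a filter on the lowest 25%, median-of-ratios rescaling, removal of 1 Mb window medians, a replicate block, edgeR 4.0.16, DESeq2 1.42.0 and leaving out each rat. After the data had been seen, summed values per H3K4me1 region, also at an adjusted p, windows grouped by coverage, omission of chromosomes 10 and 12, other DESeq2 dispersion trends, and factors and window medians from the tested regions alone were added. The main rescaling factors and window medians came from all accessible regions.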

Additional observations from a re-analysis of the deposited data

How the results depend on the processing

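Of the 359 alternatives over 50 results, 213 kept the result near its reported size or on its side of the threshold. In 19 more, a number of calls kept its size while the balance of higher and lower calls turned over. The cause of the differences below was not tested beyond what each setting itself changes. With 6 classes of equal number, 57.7% of the longest class held an accessible region. With an overlap of 50% of the accessible region, 7.22%, 14.7% and 31.4% of the 3 shortest classes and 19.4% of all regions held one, and with accessible regions above the 25th percentile 10.4%, 15.3%, 30.4% and 73.2% of the 4 shortest and 20.6% of all. Per kb, the longest class held 0.635 times as many as the shortest, counted at the overlap of 1 bp, which includes accessible regions only partly inside short H3K4me1 regions. Joining at 5 kb and 25 kb put 67.9% and 96.6% of regions in clusters, and regions of at least 1 kb alone 59.3%. The median gap between regions of at least 500 bp was 8.84 kb. Median window coverage was 5.35% in 500 kb windows and 2.86% with regions of at least 1 kb.

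The number of accessible regions called in H3K4me1 was 438 at an adjusted p below 0.05, and by class from short to long 70, 83, 110, 126, 39 and 10. The replicate block paired rats by their number alone, although they are different animals, and gave 1416 calls, by class 278, 365, 360, 322, 79 and 12. The deviations of the 2 pairs that share a number correlated at -0.09 and -0.07 over the regions. DESeq2 gave 1572 calls, with 160, 211 and 336 in the 3 shortest classes and 177 from 5 kb to 10 kb. Its local trend gave 206, 304 and 478 in the 3 shortest, and its mean dispersion gave 1177 in all and 247, 321, 314, 236, 52 and 7 by class. Window medians removed left 104 from 5 kb to 10 kb and 18 at 10 kb or longer, or 120 and 14 with medians of the tested regions. Median-of-ratios factors from the tested regions gave 5280 calls, with 1318, 1986 and 474 in the classes from 1 kb to 10 kb.

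Without each rat in turn, the number called ranged from 1477 to 4181, and by class from 233 to 432, 324 to 568, 395 to 791, 391 to 1789, 84 to 575 and 18 to 115. A lone CCI rat was assumed to vary like the other group. The share of calls that were higher after CCI was 44.5% at an adjusted p, 36.4% with median-of-ratios rescaling, 34.7% with factors from the tested regions, and 8.03% or 14.1% with window medians removed, and ranged from 13.4% to 82.0% without each rat. From 5 kb to 10 kb it was 60.9%, 59.7%, 3.85% and 16.7% in the last 4 of these settings and ranged from 23.5% to 95.5%. At 10 kb or longer it was 66.7%, 73.4%, 5.56% and 21.4%, with 75% in the replicate block, and ranged from 28.6% to 96.5%.

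Called H3K4me1 regions by summed values numbered 402 in all (182 higher and 220 lower), 21 from 5 kb to 10 kb and 0 at 10 kb or longer at an adjusted p, and 2504 in all, 51 from 5 kb to 10 kb and 3 at 10 kb or longer with window medians removed, and without each rat from 1239 to 3742, 30 to 386 and 0 to 51, most of them lower after CCI with window medians removed and without CCI rat 1. At 10 kb or longer, the 2 called without naïve rat 3 were also both lower. The *Sox10* domain had a log2 difference of -0.02 with window medians removed. Differences in the share of signal, in percentage points, ranged without each rat from -1.50 to 2.18 from 2 kb to 5 kb and from -2.15 to 2.45 for all H3K4me1. The ratio of levels between CCI and naïve ranged from 0.999 to 1.21, 0.957 to 1.24 and 0.992 to 1.31 in the classes from 1 kb to 10 kb. In the 276 windows with most H3K4me1 the difference stayed positive, at 3.82 to 5.45 percentage points.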

Other observations

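H3K4me1 landscapes of single chromosomes had their own longest domains. Chromosome 20 had chr20:4362930-4374460, of 11531 bp, listed for *Agpat1*, an enzyme of phospholipid synthesis, and *Rnf5*, a ubiquitin ligase. On chromosome 16 it was the 12904 bp region listed for *Tspan14*, a tetraspanin gene, and on chromosome X a 17198 bp region with 3 accessible regions and sums of 35.4 and 39.8 in CCI rats and 45.1, 22.0 and 23.0 in naïve rats. The groups overlapped there.

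The main limits were the merged H3K4me1 list, which gave no value per sample, and the small number of rats. The two-sided exact test used here cannot give a p below 0.200 with 2 rats against 3. Chromosome lengths were taken from the last region, so unmarked ends were left out. Genes were named only where the study's own lists name them.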
